A study of Mus musculus with 4 samples.

Results

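The transcription factors of the alveolar lineage (Nkx2-1, Cebpa, Cebpd, Foxa1, Foxa2, Gata6, Elf3 and Klf5) were followed through single-cell RNA libraries of lineage-labelled mouse lung cells. The genes were chosen by name and matched on gene symbol. Of the 8 genes listed, 7 were matched among the 27998 genes in the files, and Cebpd was not analysed here. NKX2-1 is a homeodomain protein that specifies lung epithelium and drives the surfactant genes. C/EBPα is a leucine-zipper protein of the mature alveolar type 2 (AT2) program, FOXA1 and FOXA2 are forkhead pioneer factors that open chromatin in foregut epithelium, and GATA6 is a zinc-finger factor that acts together with NKX2-1 on surfactant promoters. ELF3 is an epithelial ETS factor and KLF5 a Krüppel-like factor, both known for roles in epithelial injury and, for KLF5, in the choice between AT2 and alveolar type 1 (AT1) fates. AT2 cells make surfactant and act as progenitors of the thin, gas-exchanging AT1 cells.

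The study sorted CD45–CD31–GFP+ cells from lungs of Sftpc-creER;Rosa26-mTmG mice. In this genotype tamoxifen activates a Cre recombinase expressed from the Sftpc promoter, which leaves membrane GFP on AT2 cells and on whatever they become. All mice had tamoxifen, and 14 days later a single intratracheal dose of PBS or of bleomycin (0.8 U/kg), a drug that injures the alveolar epithelium. The 4 groups were PBS at day 0 and bleomycin at day 30, each in mice aged 3 months and in mice aged 12 months. Each group was 1 library from 3 pooled mice, so the differences given here were neither checked against replicates nor tested. Intervals are 95% and cover counting error only. Treatment and day of harvest cannot be told apart, because every PBS library is day 0 and every bleomycin library day 30.

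Cells with fewer than 500 genes or more than 20% mitochondrial counts were left out, after which 2394 to 2993 cells per library remained, with 11298801 to 36910884 counts. Both bleomycin libraries were the deeper ones, with median counts per cell of 8315.5 (3-month) and 11760 (12-month) against 4555 and 5080 in PBS. All 11 AT2 markers were detected in each library, with summed levels of 213724 to 245499 counts per 1e6 counts of the library (CPM). The sort had not removed every other cell: 7 to 310 macrophage-like cells per library were found, and the summed macrophage markers ran from 54.4 CPM in 3-month PBS to 950.7 CPM in 12-month bleomycin. The 3-month PBS library stood apart in the stress genes Hspa1a and Hspa1b, which summed to 385.5 CPM there and to 7.79 to 16.2 CPM elsewhere. Any pair of libraries shared 7 to 20 cell barcodes, at most 0.713% of a library. In the text below, AT2-like cells are clusters with no marker of another class in the lead, and they held 2075 to 2559 cells per library.

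Promoter windows from RefSeq (GRCm38.p6) were at hand for 5 of the 8 members and for 11 of 16 surfactant and lamellar body genes. Windows of 4 genes are printed here, because Foxa1 and Foxa2 parted in the data and because Sftpb and Lamp3, both AT2 genes, hold motifs of the members in their windows. Capitals mark a match, on either strand, to the core motif of a member's family. The NKX2-1 motif searched was CTCAAG. For FOXA the letters were TGTTTAC and, with a different second base, TATTTAC. For C/EBP proteins the letters were TTGCNNAA, for GATA proteins AGATAA, and for ETS proteins CGGAAGT. The Krüppel-like motif was GGGTGTG. Bases that lie in an annotated exon were left out, and each window is given 5′ to 3′ on the gene's strand. The Foxa1 window ends where the first exon of the protein-coding transcript begins, and it lies within the intron of a non-coding Foxa1 transcript that starts farther upstream, so it is inside the span of the gene given below.
Foxa1, chr12:57546122-57546361, minus strand: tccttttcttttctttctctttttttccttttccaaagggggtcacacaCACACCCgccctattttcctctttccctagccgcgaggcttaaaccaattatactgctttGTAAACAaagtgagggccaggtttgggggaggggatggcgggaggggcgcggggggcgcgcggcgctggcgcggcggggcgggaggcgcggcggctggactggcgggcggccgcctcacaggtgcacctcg
Foxa2, chr2:148046970-148047219, minus strand: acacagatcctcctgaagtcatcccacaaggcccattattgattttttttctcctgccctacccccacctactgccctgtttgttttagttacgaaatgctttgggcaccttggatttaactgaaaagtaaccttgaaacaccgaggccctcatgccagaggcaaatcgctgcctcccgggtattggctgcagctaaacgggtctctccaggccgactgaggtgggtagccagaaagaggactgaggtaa
Sftpb, chr6:72304360-72304609, plus strand: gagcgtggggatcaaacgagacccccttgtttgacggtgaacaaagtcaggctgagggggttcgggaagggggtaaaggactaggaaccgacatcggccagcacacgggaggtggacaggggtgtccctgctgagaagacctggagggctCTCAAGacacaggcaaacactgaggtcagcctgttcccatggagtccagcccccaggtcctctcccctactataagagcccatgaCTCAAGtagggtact
Lamp3, chr16:19706376-19706615, minus strand: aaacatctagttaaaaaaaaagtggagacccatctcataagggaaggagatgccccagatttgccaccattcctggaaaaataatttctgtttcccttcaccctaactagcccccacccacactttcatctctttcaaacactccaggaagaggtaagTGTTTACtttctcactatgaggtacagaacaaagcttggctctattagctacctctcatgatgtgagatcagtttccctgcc

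The Foxa1 window held a FOXA match 141 bases and a KLF match 201 bases before the RefSeq start. The Foxa2 window printed held none of the 6 motifs. Of the other RefSeq starts of Foxa2, the one farthest downstream had an NKX2-1 match at 187 bases and a GATA match at 183 bases before it. That window lies inside the span of Foxa2 given below. Exon bases were left out only of the windows printed, not of the others searched. The Sftpb window held NKX2-1 matches at 100 and 15 bases before the start, and the Lamp3 window a FOXA match at 92 bases. No motif was found in the windows of Nkx2-1, Cebpa and Elf3. Among all 32851 windows of 250 bases, 13.3% held the NKX2-1 letters, 5.76% the FOXA, 9.56% the C/EBP, 9.99% the GATA, 4.92% the ETS and 6.93% the KLF letters, so a match is a description of the sequence and no evidence of binding.

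On the mouse build GRCm38 with GENCODE M21 the 7 matched members lie on 6 chromosomes. Nkx2-1 is at chr12:56531958-56536908 and Foxa1 at chr12:57540628-57546916, both on the minus strand. Cebpa is at chr7:35119293-35121928 (plus strand), Foxa2 at chr2:148042877-148046969 (minus), Gata6 at chr18:11052064-11085635 (plus), Elf3 at chr1:135253575-135258568 (minus) and Klf5 at chr14:99298691-99315036 (plus).

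The members fell into a few orders of libraries. Foxa1 fell from library to library in the order 3-month PBS, 12-month PBS, 3-month bleomycin and 12-month bleomycin. Nkx2-1 followed the same order over a narrower range. Foxa2 and Gata6 shared an order over all passing cells. In it 3-month PBS was highest and 12-month bleomycin lowest, with 3-month bleomycin above 12-month PBS. For Gata6 no neighbours in this order differed beyond counting error. Elf3 and Klf5 had both bleomycin libraries above both PBS libraries. Levels are counts summed over the cells of a library and scaled to CPM. All 7 members passed the level minimum of 10 CPM in each comparison.

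**Figure D1:**
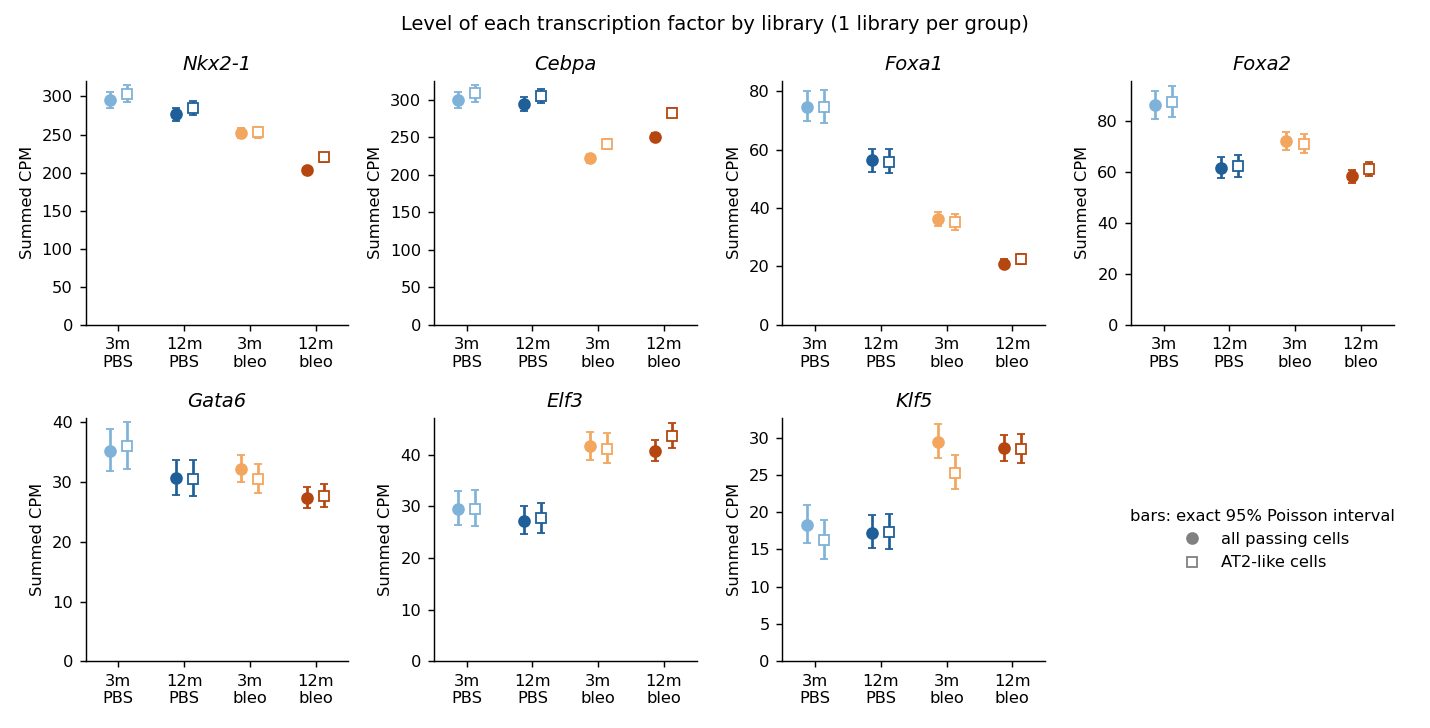
Summed level (CPM, vertical axes from 0) of each of the 7 members in the 4 libraries, over all passing cells (filled circles) and AT2-like cells (open squares), with exact 95% Poisson intervals. Foxa1 stood at 74.8 CPM in 3-month PBS and 20.97 CPM in 12-month bleomycin, while Klf5 and Elf3 were higher in both bleomycin libraries.

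Nkx2-1 was at 295 CPM in 3-month PBS, 277 CPM in 12-month PBS, 252 CPM in 3-month bleomycin and 203 CPM in 12-month bleomycin. Each step of this order exceeded counting error, and the last was the largest at 1.24-fold (1.20 to 1.29). The first step, between the PBS libraries, was that of a typical gene. Its log2 ratio was −0.093, against a median of −0.097 for all genes tested. Cebpa was at 299.7 CPM and 294.5 CPM in 3-month and 12-month PBS, which did not differ beyond counting error (1.02-fold, 0.972 to 1.07), at 250.3 CPM in 12-month bleomycin and lowest at 222 CPM in 3-month bleomycin. For Cebpa the 3-month bleomycin library was thus the low one, and for Nkx2-1 the 12-month bleomycin library.

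Foxa1 was at 74.8 CPM (69.8 to 80.0) in 3-month PBS, 56.4 CPM (52.5 to 60.4) in 12-month PBS, 36.2 CPM (33.8 to 38.8) in 3-month bleomycin and 20.97 CPM (19.5 to 22.5) in 12-month bleomycin. None of these 4 intervals overlapped. Foxa2, the paralog that shares much of FOXA1's binding, was at 86.1 CPM (80.8 to 91.7), 61.4 CPM (57.4 to 65.6), 71.9 CPM (68.5 to 75.4) and 58.1 CPM (55.7 to 60.6) in the same order. For Foxa2 both 12-month libraries were the low ones, and they did not differ from each other beyond counting error (1.06-fold, 0.975 to 1.14).

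Over all passing cells Gata6 was the flattest, at 35.1, 30.6, 32.2 and 27.3 CPM. No neighbours in its order (3-month PBS, 3-month bleomycin, 12-month PBS, 12-month bleomycin) differed beyond counting error. In AT2-like cells 12-month PBS and 3-month bleomycin were level (1.001-fold, 0.879 to 1.14), and both were below 3-month PBS beyond counting error. Elf3 was at 29.6 CPM in 3-month PBS, 27.2 CPM in 12-month PBS, 41.6 CPM in 3-month bleomycin and 40.8 CPM in 12-month bleomycin. Klf5 was at 18.2, 17.3, 29.5 and 28.6 CPM. For Elf3 and Klf5 the libraries fell into a PBS pair and a bleomycin pair, and within each pair the ratio's interval held 1 over all passing cells.

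Bleomycin at day 30 was set against PBS at day 0 within each age to ask how the factors stood after injury. At 3 months Foxa1 was 2.06-fold lower in bleomycin (1.87 to 2.27) and Klf5 1.62-fold higher (1.38 to 1.90). These were the 2 members at least 1.5-fold apart, 1 lower and 1 higher, where 9.24% of the 7189 genes tested were lower and 11.8% higher by that much. Foxa1 lay at percentile 2.6 of all log2 ratios tested and Klf5 at percentile 91.4. Below 1.5-fold, Elf3 was 1.41-fold higher (1.24 to 1.60), Cebpa 1.35-fold lower (1.29 to 1.41), Foxa2 1.20-fold lower (1.10 to 1.30) and Nkx2-1 1.17-fold lower (1.12 to 1.22). The Gata6 ratio of 0.915 had an interval that held 1 (0.809 to 1.04). In cells thinned to 3000 counts Elf3 passed 1.5-fold and Klf5 fell just short, with log2 ratios of 0.60 and 0.57.

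At 12 months Foxa1 was 2.69-fold lower in bleomycin (2.43 to 2.97), at percentile 1.65 of the 7198 genes tested, and Klf5 was 1.66-fold higher (1.44 to 1.91). Again 1 member was lower and 1 higher by 1.5-fold, beside 10.4% of genes lower and 19.1% higher. Klf5 at percentile 85.7 was therefore among many genes that were higher in this comparison. Elf3 was 1.49-fold higher (1.34 to 1.68), just short of the limit, and passed it at 1.58-fold (1.40 to 1.78) over AT2-like cells alone, where 17.1% of genes were higher by that much. Nkx2-1 was 1.36-fold lower (1.31 to 1.42) and Cebpa 1.18-fold lower (1.13 to 1.22). Foxa2 (ratio 0.947, 0.875 to 1.03) and Gata6 (0.892, with an interval from 0.796 that reached 1) did not differ beyond counting error.

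**Figure D2:**
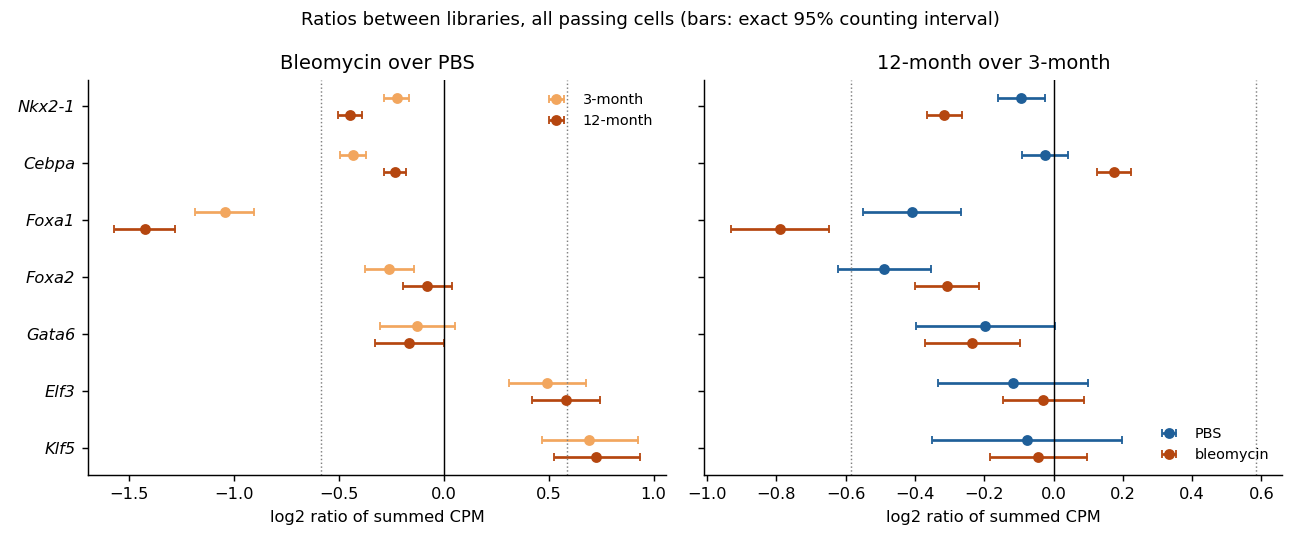
Log2 ratios of summed CPM over all passing cells for the 7 members, bleomycin over PBS at each age (left) and 12-month over 3-month within each treatment (right), with exact 95% counting intervals. The dotted lines mark 1.5-fold; Foxa1 lies beyond the lower one in bleomycin over PBS at both ages, and Klf5 beyond the upper one.

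The same comparison over AT2-like cells alone kept Foxa1 at 2.13-fold lower (1.91 to 2.37) at 3 months and 2.48-fold lower (2.23 to 2.76) at 12 months. Klf5 was 1.56-fold higher (1.30 to 1.88) and 1.64-fold higher (1.42 to 1.91) in these cells. In AT2-like cells 11.8% and 10.1% of genes were lower and higher at 3 months, and 11.1% were lower at 12 months. Cebpa moved closer to PBS in the 12-month AT2-like cells, at 1.08-fold lower (1.04 to 1.12). Gata6, the interval of which held 1 over all passing cells, was 1.18-fold lower (1.03 to 1.35) in 3-month AT2-like cells. In these cells the summed macrophage markers were at 36.5 CPM (3-month bleomycin) and 43.9 CPM (3-month PBS), and at 118 CPM (12-month bleomycin) and 72.3 CPM (12-month PBS). The T or NK cell markers summed to at most 13.9 CPM in any library. The PBS and bleomycin cells of this class lay mostly in different clusters: cluster 0 held 2036 and 2483 cells of the PBS libraries, cluster 3 held 2084 cells of 3-month bleomycin and cluster 8 held 1750 cells of 12-month bleomycin. The clusters were found without the members among the genes used. The median mitochondrial share of counts also moved with treatment, at 5.21% and 5.02% in PBS and 3.36% and 2.31% in bleomycin, and its part in these ratios was not tested.

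Because Foxa1 and Foxa2 were counted in the same cells, the share of Foxa1 among their summed counts does not depend on how libraries were scaled. This share was 46.5% (44.2 to 48.8) in 3-month PBS and 47.9% (45.4 to 50.3) in 12-month PBS. It was 33.5% (31.7 to 35.4) in 3-month bleomycin and 26.5% (24.9 to 28.2) in 12-month bleomycin. Both PBS shares were the high ones with overlapping intervals, and 12-month bleomycin was the lowest with no overlap. The sum of both genes was 161 CPM, 118 CPM, 108 CPM and 79.1 CPM in the same order, lower with each library.

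The share was also lower in bleomycin within alveolar classes, though in the smaller ones some intervals overlap. In AT2-like cells the Foxa1 share was 46.1%, 47.3%, 33.1% and 27.0%, and in AT1 or transitional cells 46.8% (40.3 to 53.4), 44.7% (30.2 to 59.9), 32.8% (27.3 to 38.8) and 22.2% (16.5 to 28.7). The AT1 or transitional cells of the PBS libraries were largely other cells than those of bleomycin: 228 of 252 in 3-month PBS, against 11 of 216 in 3-month bleomycin, fell at a finer clustering into an AT2-like cluster led by heat-shock genes. Within AT2-like cluster 3, which held cells of all 4 libraries, it was 47.8% (26.8 to 69.4) in 3-month PBS, 43.2% (28.3 to 59.0) in 12-month PBS, 33.5% (31.4 to 35.6) in 3-month bleomycin and 31.8% (27.1 to 36.7) in 12-month bleomycin. The PBS intervals there are wide, since they rest on 39 and 71 cells, and they overlap those of bleomycin. The intervals of the bleomycin libraries in this cluster also overlap each other, so no difference between the ages is read there. In cluster 8, which was led by Ly6i and Cxcl1, followed by the interferon-response genes Isg15 and Ifi27l2a, the share in 12-month bleomycin was 26.2% (24.3 to 28.1). In 3-month bleomycin it was 11.1% (3.11 to 26.1) in this cluster, on 30 cells and 36 counts, below the 12-month share but with an overlapping interval.

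**Figure D3:**
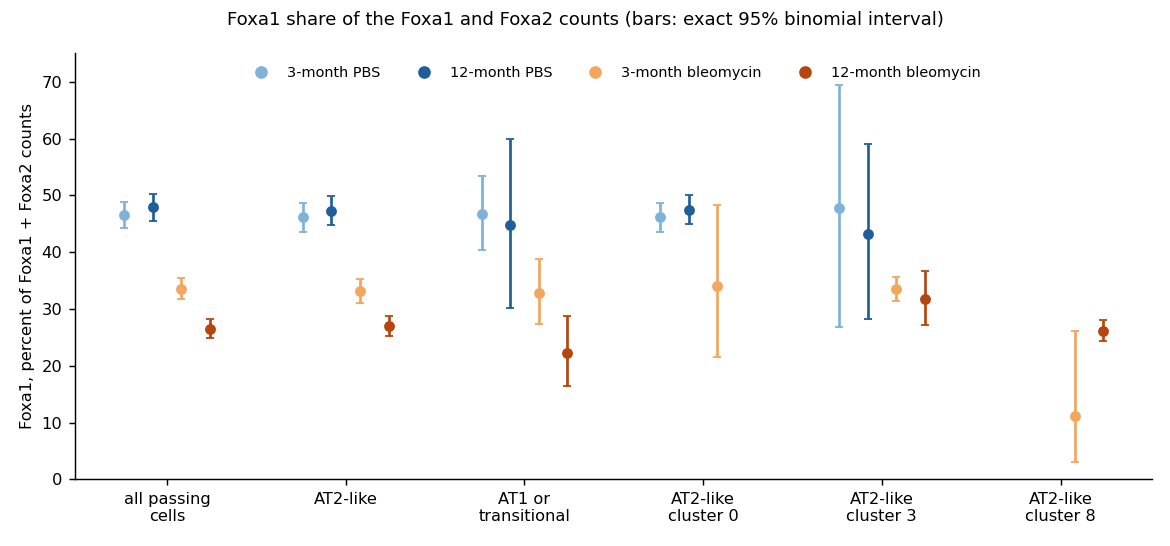
Foxa1 counts as a percent of Foxa1 plus Foxa2 counts (vertical axis) in each library, for all passing cells, 2 alveolar classes and 3 AT2-like clusters, with exact 95% binomial intervals. Points resting on fewer than 20 counts are left out; both PBS libraries lie near 47%, 3-month bleomycin at 33.5% and 12-month bleomycin at 26.5% over all passing cells.

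Shares of cells with at least 1 count mostly followed the order of the summed levels once depth was made equal. The exceptions were Klf5 between the bleomycin libraries and Gata6 between the 3-month libraries, where no order is read from the shares. Nor is an order read where shares were nearly equal, as for Nkx2-1 between the PBS libraries and Cebpa between the bleomycin libraries. Before thinning Foxa1 was detected in 28.7%, 23.7%, 25.9% and 21.5% of cells (3-month PBS, 12-month PBS, 3-month bleomycin and 12-month bleomycin), with the bleomycin cells deeper. In cells thinned to 3000 counts it was detected in 19.3% (17.6 to 21.1), 14.7% (13.3 to 16.2), 276 of 2510 cells (9.798% to 12.3%) and 5.81% (5.002 to 6.71). The unthinned share of Klf5 was 7.81%, 8.20%, 20.01% and 26.4%, and the thinned share 5.39%, 4.66%, 7.93% and 8.59%. Thinned shares of Elf3 were 8.19%, 8.003%, 11.8% and 11.4%, against 12.9%, 12.8%, 29.6% and 35.8% before thinning. Thinning left out 391 shallower cells in 3-month PBS, 321 in 12-month PBS, 114 in 3-month bleomycin and 0 in 12-month bleomycin.

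Nkx2-1 and Cebpa were the members most often seen in a thinned cell. Nkx2-1 was detected in 56.7% of 3-month PBS cells, 56.5% of 12-month PBS cells, 53.5% of 3-month bleomycin cells and 42.8% of 12-month bleomycin cells (70.3%, 72.4%, 82.4% and 79.8% before thinning). Cebpa was detected in 58.9%, 56.5%, 45.3% and 45.5% (71.4%, 71.2%, 73.3% and 79.1% before thinning). For both genes the unthinned shares were higher in bleomycin and the thinned shares lower, as in the CPM. The unthinned Cebpa intervals of the 3-month libraries overlapped. The thinned shares of Nkx2-1 were nearly equal between the PBS libraries, and those of Cebpa between the bleomycin libraries. The CPM order within those pairs is not seen in the shares. Foxa2 was at 22.4%, 17.3%, 20.2% and 15.2% after thinning, and Gata6 at 8.99%, 8.42%, 9.004% and 8.15%. Out of the 7 members a thinned AT2-like cell held counts of 1.80 on average in 3-month PBS, 1.67 in 12-month PBS, 1.61 in 3-month bleomycin and 1.53 in 12-month bleomycin.

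The ages were compared within each treatment. In PBS no member was 1.5-fold apart, beside 3.93% of 6873 genes lower and 3.04% higher. The FOXA pair came closest: Foxa2 was 1.40-fold lower at 12 months (1.28 to 1.54) and Foxa1 1.33-fold lower (1.20 to 1.46), at percentiles 6.59 and 10.6 of the genes tested. Nkx2-1 was 1.07-fold lower (1.02 to 1.12), at percentile 50.7, the middle of the genes tested. The intervals of Cebpa, Gata6, Elf3 and Klf5 held 1. In AT2-like cells the Gata6 interval did not (ratio 0.848, 0.732 to 0.983). Since both FOXA genes were lower together, the Foxa1 share hardly differed between the PBS libraries.

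In bleomycin Foxa1 was the 1 member past 1.5-fold, 1.73-fold lower at 12 months (1.57 to 1.91), beside 3.76% of 7126 genes lower and 5.49% higher. It lay at percentile 1.63 of the genes tested. Nkx2-1 was 1.24-fold lower (1.20 to 1.29), Foxa2 1.24-fold lower (1.16 to 1.32) and Gata6 1.18-fold lower (1.07 to 1.29). Cebpa went the other way, 1.13-fold higher at 12 months (1.09 to 1.17), and Elf3 and Klf5 were level within counting error. In AT2-like cells alone Foxa1 was 1.56-fold lower (1.40 to 1.74), beside 3.25% of genes lower, and the Gata6 interval held 1 (ratio 0.909, 0.816 to 1.01). Klf5 was 1.125-fold higher at 12 months in these cells, with an interval just above 1 (1.005 to 1.261).

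The difference between the ages in the bleomycin over PBS log2 ratio itself was −0.38 for Foxa1 (−0.58 to −0.18), that is, a lower ratio at 12 months. In AT2-like cells it was −0.22, with an upper bound of −0.0049. For Nkx2-1 the difference was −0.22 (−0.30 to −0.14). For Cebpa it was 0.20 (0.12 to 0.28) and for Foxa2 0.18 (0.020 to 0.34), so the ratios of these 2 genes were higher at 12 months. These differences depend on the scaling. With totals that leave out the 20 most abundant genes, the 3-month ratios shifted by 0.06 and the 12-month ratios by −0.06. This lowers every difference over all passing cells. The Foxa2 interval then holds 0, and the lower bound of Cebpa comes close to 0. In AT2-like cells it was smaller for Nkx2-1, at −0.11 (−0.20 to −0.022), and larger for Cebpa, at 0.24 (0.16 to 0.33), and Foxa2, at 0.27 (0.10 to 0.45). The intervals for Gata6, Elf3 and Klf5 held 0 in both sets of cells. Over all passing cells the Foxa2 level itself was lower at 12 months, in bleomycin (58.1 against 71.9 CPM) and in PBS (61.4 against 86.1 CPM).

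Most 12-month bleomycin AT2-like cells lay in cluster 8, and cluster 3 held another 504 of them. Within this library Cebpa was 1.53-fold higher in cluster 8 than in cluster 3 (299 against 195 CPM, 1.43 to 1.64). Klf5 was 1.31-fold higher (1.06 to 1.62), Elf3 1.23-fold higher (1.04 to 1.45) and Nkx2-1 1.10-fold higher (1.03 to 1.18). The intervals of Foxa1 (ratio 0.836, 0.685 to 1.03), Foxa2 and Gata6 held 1. Cebpa in cluster 3 stood at 240 CPM in 3-month bleomycin.

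One cluster had the AT1 gene Hopx and the transitional genes S100a6 and Sfn among its leading genes, after Psca and F3, and is called AT1 or transitional. It held 252, 63, 216 and 156 cells of 3-month PBS, 12-month PBS, 3-month bleomycin and 12-month bleomycin. In 3-month PBS 228 of these 252 cells, and in 12-month PBS 30 of 63, lay at the finer clustering in that AT2-like cluster, which was led by Hspa1b, Hspa1a and Hspb1. In 3-month bleomycin this was 11 of 216 cells and in 12-month bleomycin 1 of 156. The values for the PBS libraries, and above all for 3-month PBS, therefore rest on other cells than those of bleomycin. For this reason the levels of the class were compared only with AT2-like cells of the same library.

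Klf5 was higher and Cebpa lower in AT1 or transitional than in AT2-like cells in 4 of 4 libraries. Klf5 was at 30.4 against 16.2 CPM in 3-month PBS and at 26.9 against 17.3 CPM in 12-month PBS, at 75.2 against 25.3 CPM in 3-month bleomycin and at 62.4 against 28.4 CPM in 12-month bleomycin. These are ratios of 1.88 (1.32 to 2.62), 1.55 (0.701 to 3.00, resting on 9 counts), 2.98 (2.44 to 3.61) and 2.19 (1.76 to 2.70). Cebpa was at 285 against 308 CPM in 3-month PBS, 209 against 306 CPM in 12-month PBS, 142 against 241 CPM in 3-month bleomycin and 117 against 283 CPM in 12-month bleomycin. It was 1.08-fold (0.977 to 1.20), 1.46-fold (1.15 to 1.88), 1.70-fold (1.501 to 1.94) and 2.41-fold lower (2.08 to 2.80).

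**Figure D4:**
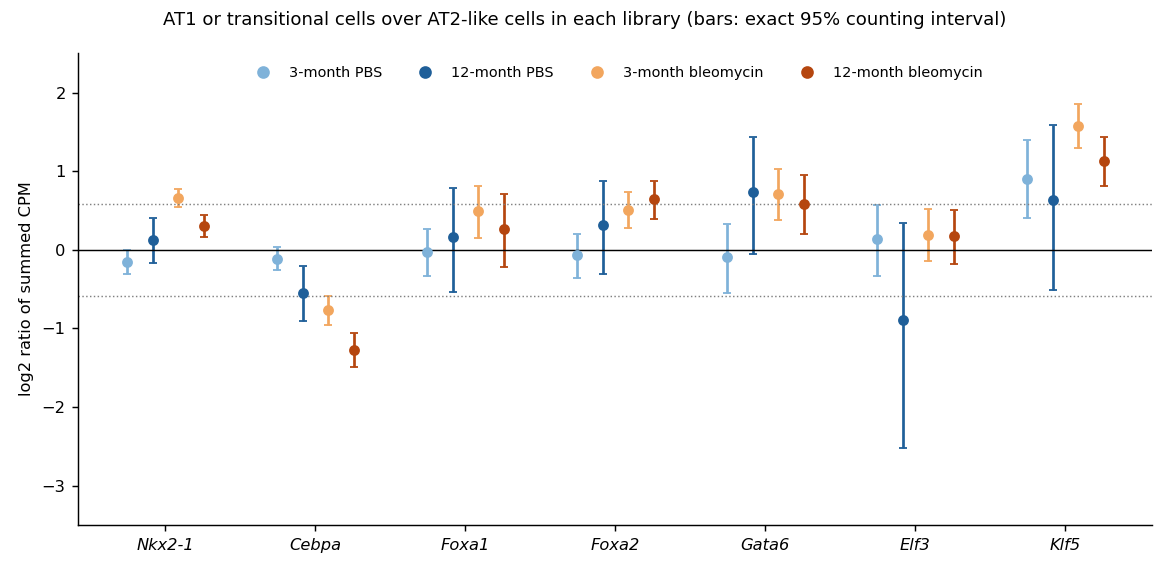
Log2 ratio of summed CPM in AT1 or transitional cells over AT2-like cells of the same library for each member, with exact 95% counting intervals and dotted lines at 1.5-fold. Klf5 lies above 0 and Cebpa below 0 in all 4 libraries, and the 12-month PBS points rest on 63 AT1 or transitional cells.

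Gata6 was 1.67-fold higher in AT1 or transitional cells of 12-month PBS (0.960 to 2.70), 1.64-fold in 3-month bleomycin (1.29 to 2.04) and 1.503-fold in 12-month bleomycin (1.15 to 1.93), but 1.07-fold lower in 3-month PBS (0.793 to 1.46). Nkx2-1 was 1.58-fold higher in 3-month bleomycin (1.46 to 1.71), at 400.0 against 253 CPM, and 1.23-fold higher in 12-month bleomycin (1.11 to 1.36). Foxa2 was 1.42-fold higher in 3-month bleomycin (1.21 to 1.66) and 1.56-fold in 12-month bleomycin (1.31 to 1.84). Foxa1 was 1.40-fold higher in 3-month bleomycin (1.11 to 1.75), and its interval held 1 in the other libraries. Elf3 reached 1.5-fold only in 12-month PBS, where it was lower, on 5 counts, and its interval held 1 in all 4 libraries. Counted at 1.5-fold, 1 member was higher in 3-month PBS (8.80% of genes), 2 in 12-month PBS (32.7%), 3 in 3-month bleomycin (37.8%) and 3 in 12-month bleomycin (27.4%). In the other direction 0, 1, 1 and 1 members were lower, beside 5.84%, 11.5%, 5.27% and 7.23% of genes. The counts of higher members are near this background, so they say nothing particular about the members.

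At a coarser clustering a cluster of 70 cells was separated that was led by the AT1 genes Igfbp2, Rtkn2, Spock2, Hopx, Akap5 and Pdpn. It held 2, 19, 39 and 10 cells of 3-month PBS, 12-month PBS, 3-month bleomycin and 12-month bleomycin. Nkx2-1 in these cells was at 581 CPM, 586 CPM, 761 CPM and 504 CPM, above the level of AT2-like cells in each library, with 6 counts in 3-month PBS. Cebpa rested on 1 to 3 counts per library, at 96.9 CPM, 28.6 CPM, 17.8 CPM and 23.4 CPM. Gata6 was at 96.9 CPM, 114 CPM, 178 CPM and 141 CPM, and Foxa2 at 96.9 CPM, 143 CPM, 166 CPM and 117 CPM. In 3-month bleomycin, the 1 library with over 30 such cells, Nkx2-1 was 2.87-fold higher (2.31 to 3.55) than in the AT2-like cells of that clustering, and Gata6 6.37-fold higher (3.71 to 10.9). There Cebpa was at a ratio of 0.0697 (0.0143 to 0.206, on 3 counts) and Klf5 2.69-fold higher (1.49 to 4.69), beside 50.0% of genes higher and 17.2% lower. Foxa1 had 1 count there, at a ratio of 0.172 (0.00425 to 1.02), and Elf3 had 4 counts, at 0.542 (0.142 to 1.48); both intervals held 1. The unnamed cells of that clustering left only 127 AT2-like cells in 3-month bleomycin for this comparison.

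The other cell types in the libraries held few cells, and the members differed among them. Gata6 was highest in mesothelial-like cells, at 229 CPM (15 cells, 3-month bleomycin) and 207 CPM (18 cells, 12-month bleomycin), where Foxa1 was at 0 counts and Foxa2 had 1 count in each library. Ciliated-like cells had Foxa1 at 156 CPM in 12-month PBS, 89.8 CPM in 3-month bleomycin and 38.2 CPM in 12-month bleomycin, on 29, 47 and 45 cells. Each value was above that of the AT2-like cells of its library, and the order over these libraries was the same as in AT2-like cells. Club-like cells of 12-month bleomycin (50 cells) had Nkx2-1 at 134 CPM, Cebpa at 179 CPM and Gata6 at 6.19 CPM on 5 counts. Proliferating-like cells of 12-month bleomycin (97 cells) had Klf5 at 44.8 CPM, Foxa1 at 15.2 CPM and Cebpa at 213 CPM.

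Counts of AT2 genes were also found in cells of other types, which do not make surfactant protein C. Free RNA and doublets, which were kept, cannot be told apart here as their source. The level of Sftpc relative to AT2-like cells gives a background for the members in each class. In macrophage-like cells Sftpc was at 21.6% of the AT2-like level in 12-month PBS, 18.5% in 3-month bleomycin and 20.8% in 12-month bleomycin. Nkx2-1 was at 20.7% (10.7 to 36.1), 22.1% (13.6 to 33.8) and 23.9% (20.1 to 28.3), the same within counting error as Sftpc. Its counts there are read as background. Foxa1, Elf3 and Klf5 in 12-month bleomycin were at 18.6%, 14.0% and 16.1% of the AT2-like level, with intervals that held the 20.8% of Sftpc. Cebpa was above this at 36.8% (23.3 to 55.4), 64.0% (48.5 to 82.8) and 39.5% (35.0 to 44.4). C/EBPα is known as a myeloid factor too. The background was not the same in every class. The T or NK-like cells come from the finer clustering (resolution 1), because the main clustering gave no such cluster. At resolution 1 the macrophage-like cluster held 206 cells of 12-month bleomycin, against 310 in the main clustering. The macrophage-like values above may therefore include T or NK cells. In T or NK-like cells of 12-month bleomycin (107 cells) Sftpc was at 36.2% of the AT2-like level, and Nkx2-1 (38.6%, 29.9 to 49.1) and Cebpa (35.8%, 28.4 to 44.7) were level with it within counting error. In endothelial-like cells of that library Sftpc was at 16.5% and Nkx2-1 at 13.1% (7.32 to 21.6). The leading genes of this cluster included Jchain and Col1a1 beside the endothelial gene Cldn5, so it was mixed. It held 56 cells of 12-month bleomycin. At resolution 1 only 14 cells of this library were endothelial-like, and 42 were mesenchymal-like.

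**Figure D5:**
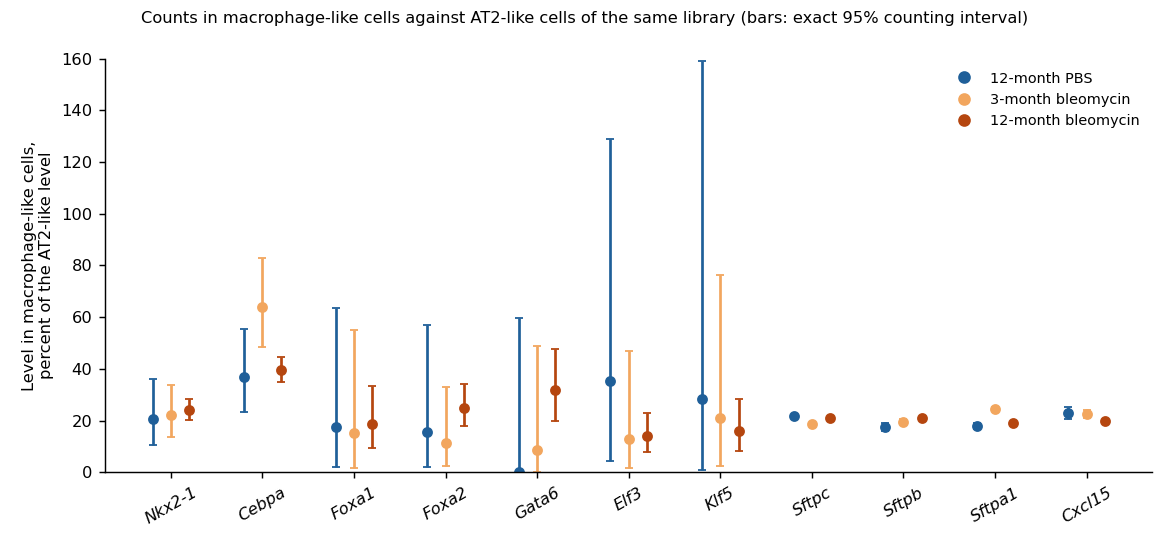
Level in macrophage-like cells as a percent of the AT2-like level of the same library for the 7 members and 4 surfactant or secretory genes of AT2 cells, with exact 95% counting intervals, in the 3 libraries with at least 30 macrophage-like cells. Sftpc lies at 18.5% to 21.6%; Cebpa lies above it in each of the 3 libraries.

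In shares of cells, thinned macrophage-like cells over all libraries held Nkx2-1 in 11.6% of cells (8.59 to 15.3), Cebpa in 24.3% (20.1 to 29.0) and Foxa1 in 1.32% (0.431 to 3.06). Median depth before thinning was 5549 counts in this cluster against 4793 to 13448 in the AT2-like clusters. The thinned share of Foxa1 in 12-month bleomycin AT2-like cells, 6.72% (5.73 to 7.83), remained above the 0.968% (upper bound 2.80) of macrophage-like cells of that library. Gata6 in endothelial-like cells of 3-month bleomycin was at 172% of the AT2-like level (85.2 to 309, 11 counts), while Nkx2-1 was at 39.5% there (24.4 to 60.4) and Sftpc at 27.2%. This was the mixed cluster, with 45 cells of this library. At resolution 1 it held 33 endothelial-like and 12 mesenchymal-like cells.

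The surfactant and lamellar body genes that NKX2-1, C/EBPα, FOXA and GATA6 are known to act on lay mostly within 1.5-fold of PBS. Of 16 genes tested 2 were higher and 0 lower in bleomycin at 3 months, beside 11.8% of all genes higher and 9.24% lower. Their median log2 ratio was 0.11, against 0.03 for all genes. At 12 months 3 were higher and 2 lower, beside 19.1% and 10.4%, with a median of 0.04 against 0.10. Sftpc, the promoter of which drove the label, was at a ratio of 1.15 and 0.958 at 3 and 12 months, and Sftpb, which encodes surfactant protein B, at 1.20 and 1.12. Sftpa1 was at 1.07 and 0.874, Abca3, the lamellar body lipid transporter, at 0.855 and 0.869, and Lamp3 at 0.836 and 0.951. Sftpd was at 1.34 and passed 1.5-fold at 12 months with 1.66. Napsa, the protease that processes surfactant protein B, was the highest at 1.68 and 2.01. Scd1, a fatty acid desaturase, was the lowest at 12 months, 2.22-fold lower.

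Among AT1 genes 3 of 11 tested were higher and 0 lower in bleomycin at 3 months (median 0.34), beside 11.8% of all genes higher and 9.24% lower. At 12 months 2 of 12 were higher and 2 lower (median −0.12), beside 19.1% and 10.4%. Pdpn, a membrane glycoprotein of AT1 cells, was the highest at both ages, at 16.1 against 3.19 CPM and 20.5 against 6.72 CPM. Igfbp2 was the lowest at 12 months, at 1.57 CPM against 20.9 CPM in PBS; at 3 months it was at 5.32 CPM in bleomycin and 4.87 CPM in PBS. Over AT2-like cells alone 0 of 8 AT1 genes were higher and 3 lower at 3 months (median −0.20), beside 10.1% and 11.8% of all genes. At 12 months 3 of 9 were higher in these cells and 1 lower (median 0.11), beside 17.1% and 11.1%. The 3 higher genes, named after their values were seen, were Pdpn at a ratio of 8.01, Ager at 1.63 and Emp2 at 1.503.

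No gene of a list of 10 gastrointestinal genes, which are known to rise in lungs without NKX2-1, reached the minimum of 10 CPM, so none was counted at 1.5-fold. Below that minimum several were higher in bleomycin beyond counting error, and those given here were named after their values were seen. Tff2, a trefoil peptide of gastric mucus, was at 9.37 CPM against 0.283 CPM at 12 months (346 against 4 counts) and had 94 against 0 counts at 3 months. Ctse, which encodes the gastric protease cathepsin E, was 6.43-fold higher at 12 months (3.89 to 11.4) and 3.25-fold higher at 3 months (1.46 to 8.53). Muc5ac, a gastric and airway mucin, had 40 counts in 12-month bleomycin and 0 in 12-month PBS, Tff1 24 against 0 and Gkn2 22 against 0. In AT2-like cells of 12-month bleomycin and PBS Ctse had 91 against 3 counts, Tff2 22 against 0, Gkn2 18 against 0, Muc5ac 3 against 0 and Tff1 2 against 0. Over all passing cells of 12-month bleomycin Ctse had 269 counts. Most counts of Ctse, Tff2, Muc5ac and Tff1 in that library thus lay in other cells, and most of Gkn2 in AT2-like cells. Gkn1, Pdx1 and Cdx2 had 0 counts in every library.

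Log2 ratios of the members' family relatives ranged from −1.78 to 2.18 at 3 months and from −1.94 to 1.33 at 12 months, against −1.04 to 0.69 and −1.43 to 0.73 for the members. Of 17 tested 4 were higher and 2 lower in bleomycin at 3 months, beside 11.8% of all genes higher and 9.24% lower, and 5 were higher and 1 lower at 12 months, beside 19.1% and 10.4%, with medians of 0.08 and −0.06. Klf2, a Krüppel-like factor known from endothelium and lymphocytes, was the highest at 3 months, at 87.8 against 19.4 CPM. Elf5, an ETS relative of Elf3, was the highest at 12 months, at 77.4 against 30.9 CPM. In AT2-like cells alone Klf2 was the highest relative at both ages. It was at 48.1 against 9.60 CPM at 3 months and at 71.5 against 17.1 CPM at 12 months. Klf15, a factor of metabolic genes, was the lowest at both ages, 3.43-fold and 3.85-fold lower, opposite in direction to Klf5. Cebpb, the relative of Cebpa, was among the 2 lower relatives at 3 months, with a ratio of 0.548; it was named after its value was seen.

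Of other lung epithelial regulators 7 of 22 were lower and 1 higher in bleomycin at 3 months, beside 9.24% of all genes lower and 11.8% higher. At 12 months 7 of 21 were lower and 2 higher, beside 10.4% and 19.1%. Their medians were −0.09 and −0.38, against 0.03 and 0.10 for all genes tested. Irx1, an Iroquois homeobox gene, was the lowest at 3 months, at 267 against 496 CPM. Srebf2, which controls cholesterol synthesis, was the lowest at 12 months, 2.39-fold lower. Foxj1, the regulator of motile cilia, was the highest at 3 months (11.7 against 6.02 CPM), where the ciliated-like cluster held 47 cells against 7. Foxp2 was the highest at 12 months, at 13.8 against 4.74 CPM. In PBS Foxp2 was also the lowest in the older library, at 4.74 against 15.8 CPM.

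Between the ages few genes of the lists were past 1.5-fold. Over all passing cells 3 of 11 AT1 genes were lower in 12-month than in 3-month bleomycin, beside 3.76% of all genes, Cav1 the lowest with 12.2 against 21.7 CPM. In AT2-like cells 1 of 9 was higher and 1 lower, beside 4.55% and 3.25%. In PBS 0 of 16 surfactant genes, 1 higher and 1 lower of 15 relatives (Klf2 higher, Ddit3 lower) and 0 higher and 2 lower of 21 regulators passed it over all passing cells, beside 3.04% of all genes higher and 3.93% lower. In AT2-like cells of PBS 3 of 15 relatives were higher at 12 months, beside 2.30% of all genes. They were Klf2, Klf4 and Klf11, named after their values were seen, and Ddit3 was lower, beside 4.25%. In bleomycin Srebf1 was the lowest regulator at 12 months (46.3 against 83.4 CPM), Klf15 the 1 relative that passed, lower, and Scd1 the 1 surfactant gene, 2.00-fold lower.

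Over 17 combinations of class and library with at least 30 cells, the genes most like each member were named by Pearson's r of log2(CPM + 1) among 4229 genes. These points share libraries and free RNA, so r is a description. Foxa1 was nearest to Fam84b (0.936), Tmem30b (0.936) and Myh14 (0.931), and Foxa2 to Prr15l (0.968), Laptm4b (0.961) and Prss8 (0.955). Nkx2-1 was nearest to Alcam (0.963), Irx3 (0.948) and Gpx4 (0.947). Klf5 was nearest to Rnf181 (0.933), Epcam (0.928) and Cldn3 (0.926), the last 2 being epithelial surface and junction genes, and Elf3 to Aldh1a7 (0.935), Tst (0.924) and Ldhb (0.918). Gata6 was nearest to Efna1 (0.943), Gtf3c1 (0.935) and Nckap1 (0.931), and Cebpa to Dram1 (0.923), Soat1 (0.912) and Tmem243 (0.908). Among the members the pair most alike was Nkx2-1 and Foxa2 (0.913), and the pair least alike was Cebpa and Gata6 (0.268).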

How the data were processed

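Per the labels and the submitters' processing notes, the authors sorted the cells, made 10x Genomics 3′ libraries and used mouse build mm10, Seurat 3.2.2 and Cell Ranger, for which the sources used here give no version. The deposited values are whole-number UMI counts for each gene in each barcode, not normalized. Barcodes with under 500 genes or over 20% mt- counts were dropped, and counts were summed per library and scaled to CPM (Python 3.11.15, numpy 2.4.6, scipy 1.17.1, pandas 2.3.3; figures with matplotlib 3.10.9). Log2 ratios have a prior of 0.5 counts. Genes that reached 10 CPM in either library were tested for a 1.5-fold difference, which is a limit of size and no significance test. Intervals are exact: Poisson for levels, Clopper-Pearson for shares, conditional binomial for ratios. The interval of a difference between 2 log2 ratios uses a normal approximation to counting error.

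Clusters were found in scanpy 1.11.5 with the members left out: 2000 variable genes, 30 components, 15 neighbors, Leiden resolution 0.5 (python-igraph 0.11.9), giving 10 clusters. Fixed markers named them; the naming rule was written after the clusters were seen, and AT2-like was the default name of 3 clusters. Doublets scored by Scrublet (0.8% per 1000 barcodes, ranked, since its own threshold called 0 to 7 per library) were kept, and left out in an alternative. Named genes are all members, the highest and lowest of each list per comparison, 6 surfactant genes, and the 3 genes most like each member. The members and lists were chosen with earlier results of these data known. The ratio code was tested on simulated data.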

Additional observations from a re-analysis of the deposited data

How the results depend on the processing

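Foxa1 stayed at least 1.5-fold lower in bleomycin at both ages under every alternative of scaling, cell filter, doublets, cells summed, weighting and thinning, with log2 ratios of −1.12 to −0.85 at 3 months and −1.58 to −1.31 at 12 months. Of 280 member ratios under alternatives 238 moved by less than the counting interval and 42 by more. At 2-fold in place of 1.5-fold, the members higher in bleomycin were 0 at both ages, and 0 members were lower in 12-month than in 3-month bleomycin. The members higher at 12 months were 2 in place of 1, with Elf3 added, under the strict cell filter, without called doublets, in alveolar clusters alone and in AT2-like clusters alone. For AT1 or transitional against AT2-like cells, 3-month PBS had 2 members higher with 15 components or without called doublets and 0 at 2-fold. In 12-month PBS 0 were higher at 2-fold, and 2 (15 components) or 0 (2-fold) were lower. With 15 components or without called doublets 2 were still higher there, but Foxa2 had taken the place of Klf5 beside Gata6. Klf5 was then at ratios of 1.49 (0.542 to 3.30, on 6 counts) and 1.28 (0.411 to 3.03, on 5 counts). In 3-month bleomycin 4 were higher at resolution 0.3 or 1 and 1 without called doublets or at 2-fold, and 3 (resolution 0.3) or 0 (without called doublets, or at 2-fold) were lower. In 12-month bleomycin 2 were higher without called doublets and 1 at resolution 1 or at 2-fold. At resolution 0.3 Foxa1 in 3-month bleomycin was lower (ratio 0.172, on 1 count) in place of 1.40-fold higher, and Elf3 0.542 in place of 1.14. The class log2 ratios of Foxa2 and Gata6 in 3-month PBS, slightly below 0, were 0.42 and 0.44 without called doublets. The cause was not tested. Below the limit, the sign changed for Gata6 in 3-month bleomycin over PBS (0.10 and 0.07 in thinned cells), for Cebpa (up to 0.05) and Klf5 (up to 0.17) between the ages in PBS, and for Elf3 (up to 0.08) and Klf5 (up to 0.17) between the ages in bleomycin. Another scaling shifted all log2 ratios of a comparison by at most 0.08. Totals without the 20 most abundant genes shifted bleomycin over PBS in opposite directions at the 2 ages, so differences between the ages moved by more. Thinning to 2000 counts lowered every share of cells (Foxa1 to 13.8%, 10.2%, 6.59% and 3.58%). No paired analysis was possible because each group is 1 library. With 3 mice pooled per library the spread between animals is not known.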
